A study of Mus musculus with 40 samples.

Results

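The response of mouse embryonic stem cell-derived astrocytes (ES-astrocytes) to the cytokines interleukin-1α (IL-1α) and tumor necrosis factor-α (TNF-α) was measured in 8 of the 40 RNA-seq libraries of the study, which hold 20 ES-astrocyte libraries. The 8 libraries were chosen by their sample titles: 4 of ES-astrocytes given IL-1α and TNF-α together for 24 h, the stimulated group, and 4 of control ES-astrocytes without either cytokine. Each group has biological replicates A to D, each a separate vial of stem cells of a defined passage, and all 8 libraries carry plate index 1. Both groups came from a non-commercial embryonic stem cell line from B6.Cg-Tg(Hlxb9-GFP)1Tmj/J mice, in which enhanced green fluorescent protein marks motor neurons, so that every culture shares that line and its transgene. Retinoic acid and smoothened agonist together set a ventral brainstem or rostroventral spinal identity. The glial progenitors were expanded with growth factors and matured with forskolin, and the medium of both groups contained serum. ES-motor neurons were seeded onto stimulated and control ES-astrocytes alike, and each cell type was then sorted by its fluorescence into samples of about 200 cells. The pair of cytokines served as the study's positive control, and the comparison asks which polyadenylated RNAs differ between ES-astrocytes with and without it.

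IL-1α binds the receptor IL1R1 with its partner IL1RAP and signals through MYD88 and the IRAK kinases, while TNF-α binds TNFR1 and TNFR2 and signals through TRADD and RIPK1. Both routes meet at TAK1 and the IκB kinases, which free the transcription factor NF-κB, and at the kinase JNK, which acts on AP-1 factors such as JUN. In astrocytes, NF-κB is known for turning on chemokines, acute phase proteins, complement and adhesion molecules, and its inhibitors among its targets end the signal.

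The stimulated libraries A to D held 14831839, 2535419, 2129286 and 2019196 counts on genes, and the control libraries 7866943, 13384392, 2848750 and 6467280. A count of 0 allows up to 3 counts, which came to between 0.202 and 1.49 CPM (counts relative to the total of their library) in the stimulated and between 0.224 and 1.05 CPM in the control libraries. Such limits and all intervals given for folds cover counting error only, since no molecular identifiers were used. Of 55487 genes, 21824 had a count in any of the 8 libraries. Levels are CPM scaled by the TMM method, and values of a group are given in the order of replicates A to D.

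Control A stood apart from the other libraries. Across genes, its log2 CPM correlated with those of the other controls at 0.50 to 0.53, whereas controls B, C and D correlated with each other at 0.70 to 0.73. Its highest correlation, 0.76, was with stimulated B, and both had more genes with a count (15481 and 15184) than any other library (11274 to 13802). Genes are not independent replicates, so these coefficients only describe the libraries. The neural progenitor gene *Hes6* stood at 1008, 43.6, 196 and 40.7 CPM in the controls, and *Pkm*, a gene of glycolysis, at 502, 42.0, 59.6 and 66.0 CPM. Other genes went the opposite way: the glutamate transporter gene *Slc1a3* stood at 3.21, 47.5, 76.25 and 56.5 CPM and the hyaluronan receptor gene *Cd44* at 4.02, 297, 87.45 and 139 CPM. Control A was thus the highest of the controls in the first pair and the lowest in the second, and many of the results below are also given without it.

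**Figure D1:**
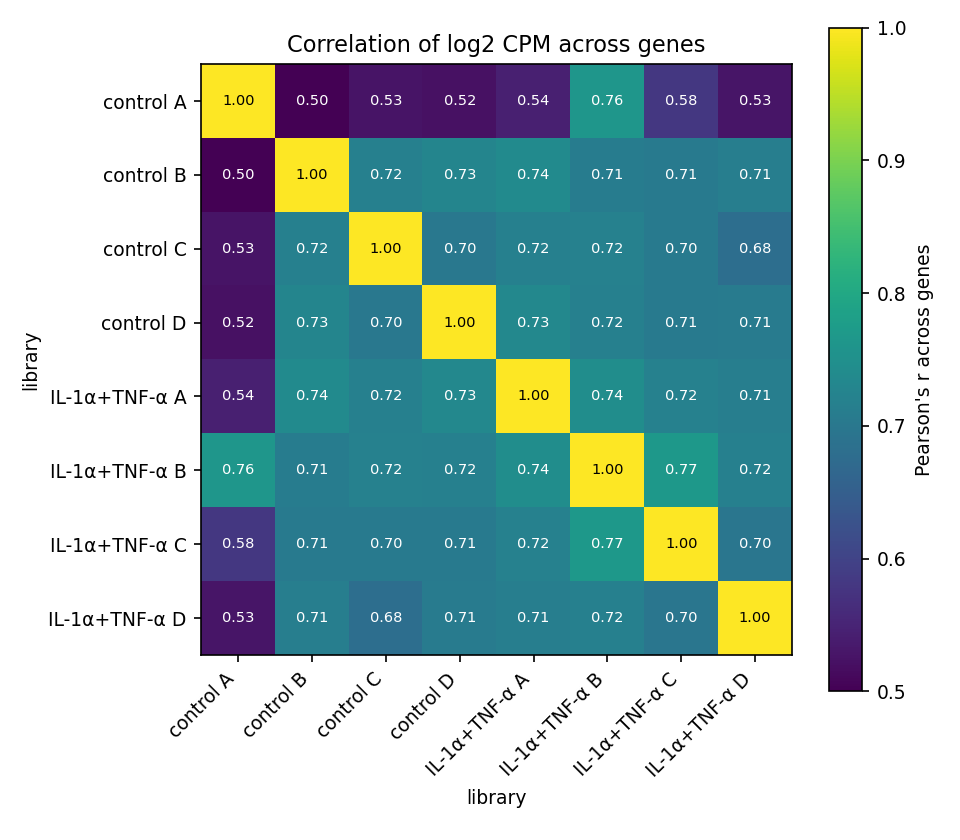
Pearson's r of log2 CPM across genes between the 8 libraries, given in each cell and by color, with control and IL-1α+TNF-α libraries on both axes. Control A has the low values, 0.50 to 0.58, with every library except stimulated B at 0.76.

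*Saa3*, *Ccl5* and *Ccl20* had no count in any control library and between 958 and 2175 counts in the stimulated group, and *Saa3* and *Ccl5* separated all 4 stimulated libraries from the controls. *Saa3* (ENSMUSG00000040026, chromosome 7 from 46711998 to 46715700 on GRCm38), which encodes an acute phase serum amyloid A protein, stood at 108, 201, 55.5 and 16.98 CPM in the stimulated libraries. It had 2175 counts there, at least 1072-fold higher than 3 counts over the control group. All 4 stimulated libraries lay above all 4 controls. *Ccl5* (ENSMUSG00000035042, chromosome 11 from 83525778 to 83530518), the gene of a chemokine that draws T cells and monocytes, stood at 50.3, 12.85, 55.5 and 68.9 CPM, with 958 counts and at least 472-fold higher. It too was counted in each stimulated library, lowest in B. *Ccl20* (ENSMUSG00000026166, chromosome 1 from 83116766 to 83119167), the gene of the CCR6 ligand, stood at 105, 12.85, 0 and 0 CPM, with 1423 counts and at least 701-fold higher. That bound rests on stimulated A (1385 counts) and B (38), and libraries C and D had no count of it. Stimulated A, the deepest library of its group, also held 1428 of the *Saa3* and 664 of the *Ccl5* counts.

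The test over all genes by edgeR called none of them. With a call set at a Benjamini-Hochberg adjusted p up to 0.05 and a log2 fold change beyond 1 in either direction, the quasi-likelihood test of edgeR gave 0 of 10444 genes (0%), and 93 genes (0.89%) had an unadjusted p under 0.05, 46 higher (0.44%) and 47 lower (0.45%) in stimulated ES-astrocytes. *Saa3* and *Ccl5* shared edgeR's lowest adjusted p, 0.374, and every other gene tested was at 1.00. *Ccl20* was below edgeR's filter on low counts. DESeq2 called 25 of 13534 genes (0.185%), 20 higher and 5 lower, and 626 of its genes had an unadjusted p under 0.05. limma-voom called 0, with 511 genes at an unadjusted p under 0.05. Without a filter on low counts edgeR called 2 of 21824 genes (0.00916%), *Saa3* (adjusted p = 3.32e-04) and *Ccl5* (adjusted p = 0.0164). Without control A, an alternative chosen after seeing the data, DESeq2 called 170 of 12147 (1.4%), 154 higher and 16 lower, among them 23 of the 25, while edgeR still called 0 of 10250 with 434 at an unadjusted p under 0.05. DESeq2 called 188 of 11767 without control A and stimulated B, chosen in the same way. Of these, 111 were higher and 77 lower, and 18 were among the 25. With a common dispersion of 1.11 between libraries of a group, 0 calls do not show that no gene differed. A gene is named as called below for edgeR or DESeq2 with all 8 libraries unless another alternative is given. All such p-values measure only the spread between these samples.

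DESeq2's adjusted p was 8.11e-13 for *Saa3*, higher in 4 of 4 stimulated libraries, 1.49e-12 for *Ccl5*, also in 4 of 4, and 1.49e-12 for *Ccl20*, in 2 of 4. Over the alternatives that tested them, the adjusted p ranged from 8.11e-13 to 1.00 for *Saa3* and from 1.49e-12 to 1.00 for *Ccl5*, each called in 4 of 20 fits, and from 1.49e-12 to 1.00 for *Ccl20*, called in 2 of 4. An exact two-sided permutation test of the mean CPM gave p = 0.0286 for *Saa3* and *Ccl5*, the smallest that 4 against 4 can give, and p = 0.429 for *Ccl20*. Among the 10444 genes tested, the groups did not overlap for 113 that were higher (1.08%) and 78 that were lower (0.747%) in stimulated ES-astrocytes.

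**Figure D2:**
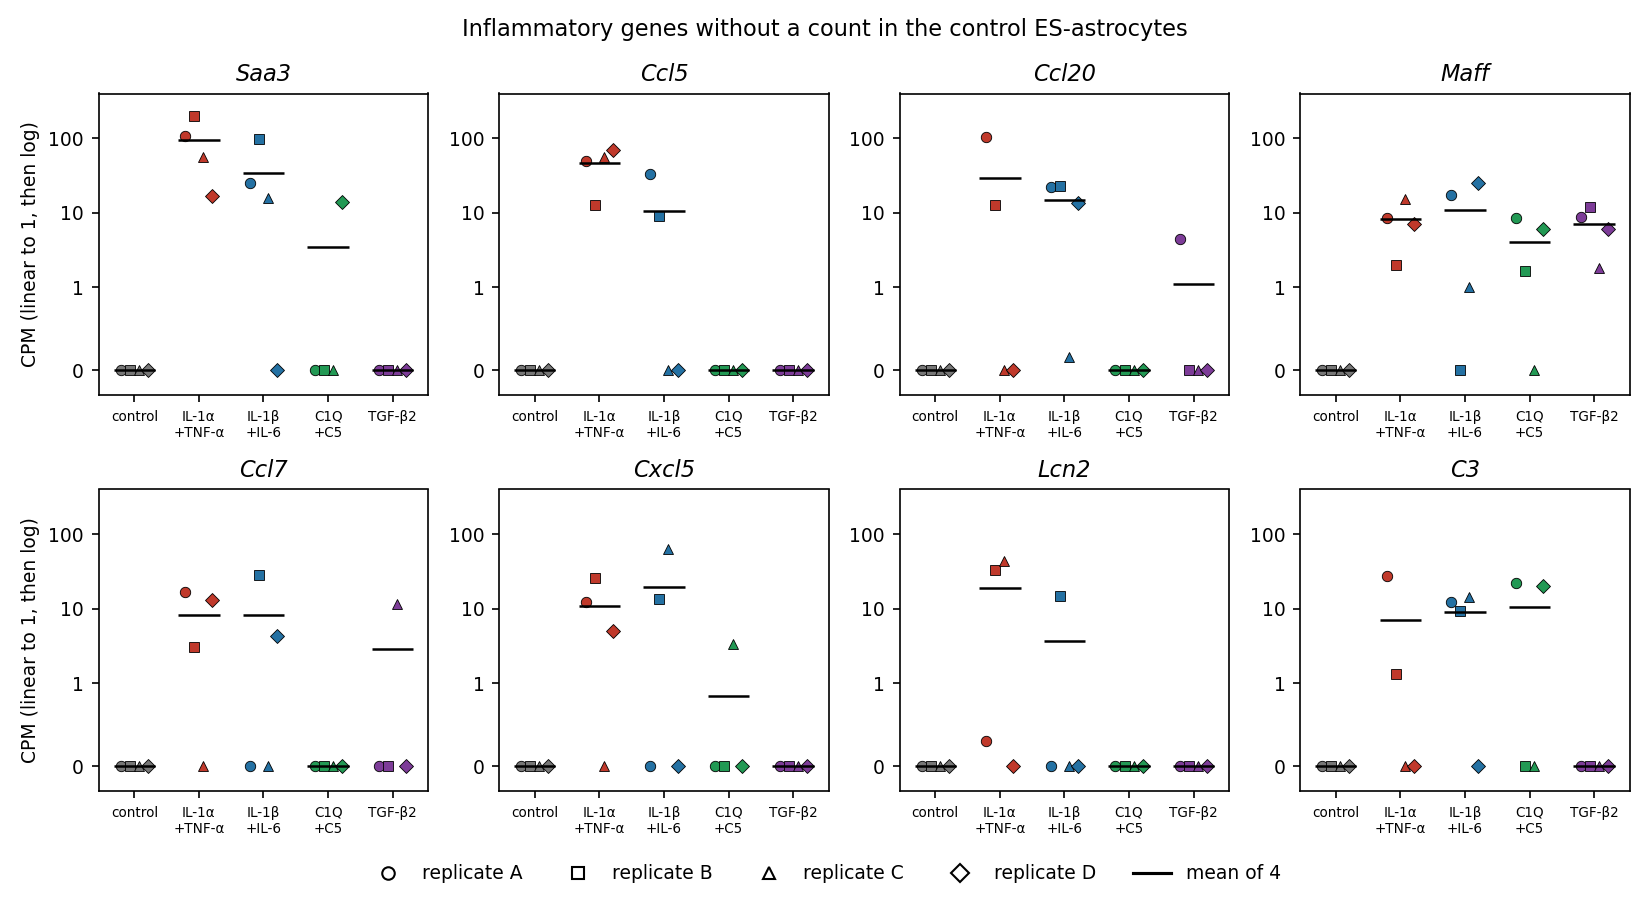
CPM (linear from 0 to 1, then logarithmic) of 8 genes without a count in the control ES-astrocytes, in each library of the control and of the 4 stimuli. Symbols mark replicates A to D and lines the mean of 4; in the IL-1α+TNF-α group, *Saa3*, *Ccl5* and *Maff* lie above 0 in all 4 libraries and the other genes in 2 or 3.

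The genes of the receptors were counted in few libraries. *Il1r1*, the signalling receptor of IL-1α, had 13 counts, all in stimulated B (4.39 CPM), and *Il1rap*, its partner, had 61 counts, all in control C (22.0 CPM). *Tnfrsf1a*, the gene of TNFR1, stood at 5.725, 0, 0 and 0 CPM in control and 0, 4.39, 0 and 6.99 CPM in stimulated libraries, and *Tnfrsf1b*, the gene of TNFR2, had 6 counts in control A and none elsewhere. No receptor gene was thus counted in more than 3 of the 8 libraries. DESeq2 called *Il1rap* lower without control A and stimulated B, an alternative chosen after seeing the data (adjusted p = 6.32e-06, range over its alternatives 6.32e-06 to 1.00), a call that rests on control C alone. Of 20 genes of receptors and adaptors, 17 had a count, 7 were tested and none was called. Their median log2 fold change was -0.32, against -0.08 over all genes tested (-0.13 and 0.03 without control A).

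Downstream of the receptors, *Irak4*, the kinase recruited by MYD88, stood at 8.94, 0, 0 and 0.499 CPM in control and 13.5, 9.13, 6.11 and 2.996 CPM in stimulated libraries (log2 fold change 1.64, standard error 1.81, exact permutation p = 0.114). Control A lay within the stimulated range and the other controls below it. Without control A the log2 fold change of *Irak4* was 5.36, and DESeq2 called it (adjusted p = 0.0364, range over its alternatives 0.0364 to 1.00). *Irak1*, a kinase that acts after IRAK4, overlapped between the groups at 24.1, 21.6, 9.03 and 33.6 CPM in control and 21.3, 10.8, 6.58 and 0 CPM in stimulated libraries.

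The NF-κB genes themselves showed no call. Of 29 genes of NF-κB subunits, kinases and feedback inhibitors, 26 had a count and 15 were tested, 7 fitted higher and 8 lower, with a median log2 fold change of -0.25 (-0.13 without control A). *Nfkbia*, which encodes the inhibitor IκBα and is a textbook NF-κB target, stood at 19.3, 25.4, 5.78 and 9.98 CPM in control and 4.54, 53.75, 24.45 and 35.45 CPM in stimulated libraries. Stimulated B and D lay above all controls, C just below control B and A below them all (log2 fold change 0.95, standard error 0.89, exact permutation p = 0.314). *Chuk*, the gene of IκB kinase α, stood at 29.0, 21.5, 28.2 and 15.6 CPM in control and 66.8, 47.3, 42.8 and 27.0 CPM in stimulated libraries (log2 fold change 0.94, exact permutation p = 0.0857). Only stimulated D overlapped the controls. *Tab1*, an activator of TAK1, went the other way, at 29.4, 16.7, 12.65 and 0.333 CPM in control and 4.54, 1.69, 0 and 0 CPM in stimulated libraries (log2 fold change -3.20, exact permutation p = 0.0857), with control D among the stimulated libraries. Of the list, 3 genes had over 3 counts in stimulated and none in control libraries (2 of 23 without stimulated B), beside 5.84% (3.88%) of all counted genes, and 1 the reverse, beside 6.15%. The feedback inhibitor genes *Tnfaip3*, *Nfkbiz* and *Tnip3*, chosen after their values were seen, had 4 counts in stimulated C, no count in the 8 libraries, and 0, 5.41, 14.6 and 0 CPM in stimulated libraries with 0 in controls, respectively.

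Among AP-1 genes, *Maff*, which encodes a small MAF protein that binds DNA without an activation domain of its own, was counted in stimulated libraries only. It stood at 8.48, 2.03, 15.5 and 6.99 CPM there, with 165 counts, at least 81.3-fold higher than 3 counts over the control group. All 4 stimulated libraries thus lay above all 4 controls, with B lowest. The exact permutation p of *Maff* was 0.0286, and DESeq2 called it (adjusted p = 2.16e-04, range over its alternatives 2.16e-04 to 1.00). *Jun*, the AP-1 gene downstream of JNK, stood at 7.03, 12.8, 0.361 and 0.166 CPM in control and 3.785, 2.03, 28.2 and 6.99 CPM in stimulated libraries (log2 fold change 0.98, standard error 1.57, exact permutation p = 0.600). The groups overlapped, and without stimulated C the fold change of *Jun* was -0.25. *Gadd45a*, a stress gene that acts on MAP kinases, stood at 5.52, 1.065, 0 and 1.496 CPM in control and 10.75, 2.70, 4.23 and 32.95 CPM in stimulated libraries (log2 fold change 2.58, or 3.85 without control A, exact permutation p = 0.114). Of the 23 genes of the JNK and AP-1 pathway, 15 were tested, 10 fitted higher and 5 lower, with a median of 0.08 (0.65 without control A).

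Several chemokine genes were counted with the cytokines and not without them. Of 22 chemokine genes and atypical receptors, 12 had a count, and 5 of these 12 had over 3 counts in stimulated and none in control libraries, against 1274 of all 21824 counted genes (5.84%). The reverse, over 3 counts in control libraries only, held for 1 of the 12 and for 1342 of all genes (6.15%). Without stimulated B, the library of its group with the most genes counted, 4 of 11 chemokine genes and 815 of 20992 genes (3.88%) were counted in stimulated libraries only. *Ccl7*, the gene of a monocyte chemokine chosen after its values were seen, stood at 16.7, 3.04, 0 and 12.98 CPM in stimulated libraries and 0 in controls, at least 126-fold higher on 256 counts, of which 221 were in stimulated A (exact permutation p = 0.143). *Cxcl5*, a neutrophil chemokine gene chosen in the same way, stood at 12.6, 25.7, 0 and 4.99 CPM, at least 124-fold higher on 252 counts, of which 166 were in stimulated A (exact permutation p = 0.143). Each was at 0 in stimulated C and present in the other 3 libraries. *Ccl2*, the main monocyte chemokine gene, was in both groups, at 3.01, 0, 12.65 and 0 CPM in control and 9.46, 41.6, 24.9 and 0 CPM in stimulated libraries (log2 fold change 2.28, standard error 2.04, exact permutation p = 0.257). *Cxcl1*, another neutrophil chemokine gene chosen after its values were seen, had 7 counts, all in stimulated B. Only 3 genes of the list were tested by edgeR, 1 (*Ccl5*) with an unadjusted p under 0.05, beside 0.89% of all genes tested. DESeq2 called 2, *Ccl5* and *Ccl20*, beside 0.185% of all its genes. Without control A DESeq2 also called *Cxcl5* (adjusted p = 0.0282 against 0.0566 with it, range over its alternatives 0.0282 to 1.00).

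The acute phase and secreted defence genes included, beside *Saa3*, the iron-binding lipocalin gene *Lcn2*. It stood at 0.303, 32.8, 44.2 and 0 CPM in stimulated libraries and 0 in controls, at least 96.1-fold higher (exact permutation p = 0.143). Nearly all of its counts came from stimulated B and C. *Cp*, which encodes the copper-binding ferroxidase ceruloplasmin, stood at 0, 13.2, 16.98 and 0 CPM in control and 11.9, 76.7, 35.7 and 53.9 CPM in stimulated libraries (log2 fold change 2.60, standard error 1.60, exact permutation p = 0.0857). Stimulated B, C and D lay above all controls and A below controls B and C. Of the 29 genes of this list found in the table, 16 had a count. By over 3 counts in the group, 5 of them were in stimulated libraries only, beside 5.84% of all counted genes. Without stimulated B these were 4 of 15, beside 3.88%. In control libraries only were 2 of the 16, beside 6.15%. The 7 tested members had a median log2 fold change of 0.31 (1.41 without control A). DESeq2 called *Saa3* with all libraries, beside 0.185% of all its genes. Without control A it also called *Lcn2* (adjusted p = 0.0187 against 0.0559 with it, range over its alternatives 0.0187 to 0.531).

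Few complement, cytokine and adhesion genes had enough counts for a test. *C3*, the central complement gene and a marker of the A1 astrocyte state, stood at 27.25, 1.35, 0 and 0 CPM in stimulated libraries and 0 in controls, at least 179-fold higher on 364 counts, of which 360 were in stimulated A (exact permutation p = 0.429). Counts in stimulated libraries only were found for 5 of 11 counted complement genes, 5 of 16 cytokine and growth factor genes and 3 of 11 adhesion and protease genes, beside 5.84% of all counted genes. Without stimulated B these were 2 of 8, 3 of 15 and 3 of 11, beside 3.88%. The reverse held for 0, 1 and 2 genes of these lists. These numbers again ask for over 3 counts in the group and none in the other. *Serping1*, the gene of the C1 inhibitor and the only tested complement gene, overlapped between the groups at 35.9 to 111.5 CPM in control and 33.45 to 96.3 CPM in stimulated libraries. The growth factor genes *Hbegf* (9.24 to 43.6 against 6.42 to 35.3 CPM) and *Vegfa* (0 to 11.2 against 0.470 to 4.49 CPM) overlapped too, as did the adhesion genes *Cd44* (4.02 to 297 against 32.1 to 236 CPM) and *Cd47* (54.4 to 219 against 84.6 to 201 CPM). None of these lists had a called member.

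Few reactive astrocyte markers had enough counts for a test. *Gfap*, the filament gene used most often to mark reactive astrocytes, had no count in any of the 8 libraries. *Vim*, another filament gene, stood at 554, 361, 748 and 383 CPM in control and 583, 356, 491 and 499 CPM in stimulated libraries, and the groups overlapped. Of 13 pan-reactive markers 5 were tested, with a median log2 fold change of -0.10 (0.92 without control A), of 13 A1 markers 5, with 0.42 (0.49), and of 12 A2 markers 3, with -0.53 (-0.85). *Fbln5*, an extracellular matrix gene among the A1 markers, was fitted lower, at 65.2, 13.9, 35.8 and 13.6 CPM in control and 0, 7.775, 0 and 0 CPM in stimulated libraries, without overlap (log2 fold change -4.08, standard error 1.83, exact permutation p = 0.0286). DESeq2 called it only without control A and stimulated B (adjusted p = 3.00e-05, range over its alternatives 3.00e-05 to 1.00). The A1 marker *Fkbp5*, a co-chaperone of the glucocorticoid receptor, stood at 2.91, 9.495, 2.17 and 16.0 CPM in control and 11.8, 27.7, 13.6 and 37.45 CPM in stimulated libraries (log2 fold change 1.57, exact permutation p = 0.114), with control D above 2 of the stimulated ones. Of the A2 markers, *B3gnt5* (23.2 to 148.5 against 56.4 to 97.7 CPM) and *Tm4sf1* (0 to 24.2 against 0 to 24.3 CPM) overlapped.

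Interferon response genes had 14 of 25 members counted and 3 tested, with a median log2 fold change of 0.58 (0.16 without control A). Of the 14, 4 had over 3 counts in stimulated libraries only, beside 5.84% of all counted genes (2 of 11 without stimulated B, beside 3.88%). The reverse held for 1 of the 14, beside 6.15%. *Ifitm3*, an antiviral membrane protein gene, stood at 171.5, 92.9, 141 and 61.35 CPM in control and 126.5, 163, 226 and 339 CPM in stimulated libraries (log2 fold change 0.86, standard error 0.44, exact permutation p = 0.143, and 1.14 without control A). Stimulated C and D lay above all controls, A and B within their range. In the JAK-STAT and IL-6 family list, with 8 tested members and a median of -0.17 (-0.33 without control A), *Stat3*, which acts in reactive astrocytes, stood at 50.5, 16.6, 17.35 and 23.1 CPM in control and 64.6, 65.6, 150.5 and 22.97 CPM in stimulated libraries. Stimulated A, B and C lay above all controls and D among them (log2 fold change 1.45, standard error 0.65, exact permutation p = 0.0857, and 1.995 without control A). *Socs2*, a feedback inhibitor of that pathway, overlapped (17.8 to 43.7 against 16.98 to 61.1 CPM). The 7 tested genes of MHC class I antigen presentation had a median of 0.02, whose sign turned with RLE scaling (-0.02) and without control A (-0.04). The proteasome activator genes *Psme1* (36.4 to 114 against 23.1 to 69.9 CPM) and *Psme2* (95.9 to 194 against 117 to 136 CPM) overlapped.

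The astrocyte label was checked against 34 astrocyte genes. *Aldh1l1*, *Aqp4*, *Gjb6*, *S100b* and *Gfap* had no count in any of the 8 libraries. The RNA of these defining markers of mature astrocytes was thus not detected at this depth. By immunostaining, the study reports the proteins GFAP, AQP4 and GLT-1 in ES-astrocyte cultures matured with forskolin or other factors. The name ES-astrocytes is kept as the study's term. The summed level of the 29 counted genes, of which the radial glia gene *Fabp7* was the most abundant, was 2311, 5401, 4439 and 4519 CPM in control and 3798, 2241, 3442 and 3096 CPM in stimulated libraries (exact permutation p = 0.229). Control A and stimulated B were the lowest of their groups. Of the 19 tested members 3 were fitted higher and 16 lower, with a median log2 fold change of -0.48 (-0.57 without control A), and none was called. *Slc1a3*, the gene of the glutamate transporter GLAST, stood at 26.95, 10.1, 16.5 and 33.95 CPM in stimulated libraries, below controls B, C and D and above control A (log2 fold change -1.05 with all libraries, exact permutation p = 0.2, and -1.44 without control A). *Slc1a2*, the gene of the transporter GLT-1, stood at 26.0, 95.2, 77.7 and 130.5 CPM in control and 104, 102, 191 and 134 CPM in stimulated libraries (log2 fold change 0.69, or 0.40 without control A, exact permutation p = 0.143), with control D above 2 of the stimulated ones. In samples of about 200 cells, fewer cells of a type and less RNA per cell cannot be told apart.

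More proliferation genes were fitted lower than higher with the cytokines, and none was called. Of 21 S phase genes, all tested, 4 were fitted higher and 17 lower, with a median log2 fold change of -0.54, and of 21 mitosis genes, all tested, 5 higher and 16 lower, with a median of -0.50. Over all genes tested 4602 were fitted higher and 5842 lower, with a median of -0.08. Without control A the medians were -0.37 and -0.44, against 0.03 over all genes. Each list had 1 lower and no higher gene with an unadjusted edgeR p under 0.05, beside 0.45% lower and 0.44% higher of all genes tested. The groups did not overlap for 1 gene of each list, beside 1.08% higher and 0.747% lower of all genes tested: *Uhrf1* was lower, and *Bub1b*, a mitotic checkpoint gene chosen after its values were seen, was higher, at 7.43, 12.7, 0 and 0.998 CPM in control and 21.6, 23.3, 26.3 and 20.5 CPM in stimulated libraries.

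*Uhrf1*, which encodes a protein that maintains DNA methylation during S phase, stood at 67.8, 66.0, 79.5 and 65.5 CPM in control and 28.8, 26.4, 47.5 and 13.5 CPM in stimulated libraries. All 4 stimulated libraries lay below all 4 controls (log2 fold change -1.28, standard error 0.49, exact permutation p = 0.0286). *Birc5*, the gene of the mitotic protein survivin, stood at 204, 328, 306 and 351.5 CPM in control and 216.5, 186, 182 and 156 CPM in stimulated libraries (log2 fold change -0.69, standard error 0.29, exact permutation p = 0.0571). Stimulated A lay above control A and all other stimulated libraries below every control. Without control A the log2 fold change of *Birc5* was -0.81 (DESeq2 adjusted p = 0.00780, range over its alternatives 0.00780 to 1.00), short of the minimum fold. *Tyms*, the thymidylate synthase gene, stood at 271, 259.9, 250.4 and 183 CPM in control and 170, 113, 203 and 132 CPM in stimulated libraries (log2 fold change -0.66, exact permutation p = 0.0571). *Ccnb1*, the gene of the mitotic cyclin B1, stood at 264.5, 119, 215 and 184 CPM in control and 98.6, 153, 117 and 109 CPM in stimulated libraries (log2 fold change -0.74, or -0.52 without control A, exact permutation p = 0.0571). In both genes 1 control lay below 1 stimulated library. The 13 tested genes of cell cycle arrest and p53 targets had a median of 0.07 (0.34 without control A), and *Mdm2*, a p53 target, stood at 39.0, 53.7, 16.98 and 13.1 CPM in control and 59.7, 43.6, 59.7 and 49.4 CPM in stimulated libraries.

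**Figure D3:**
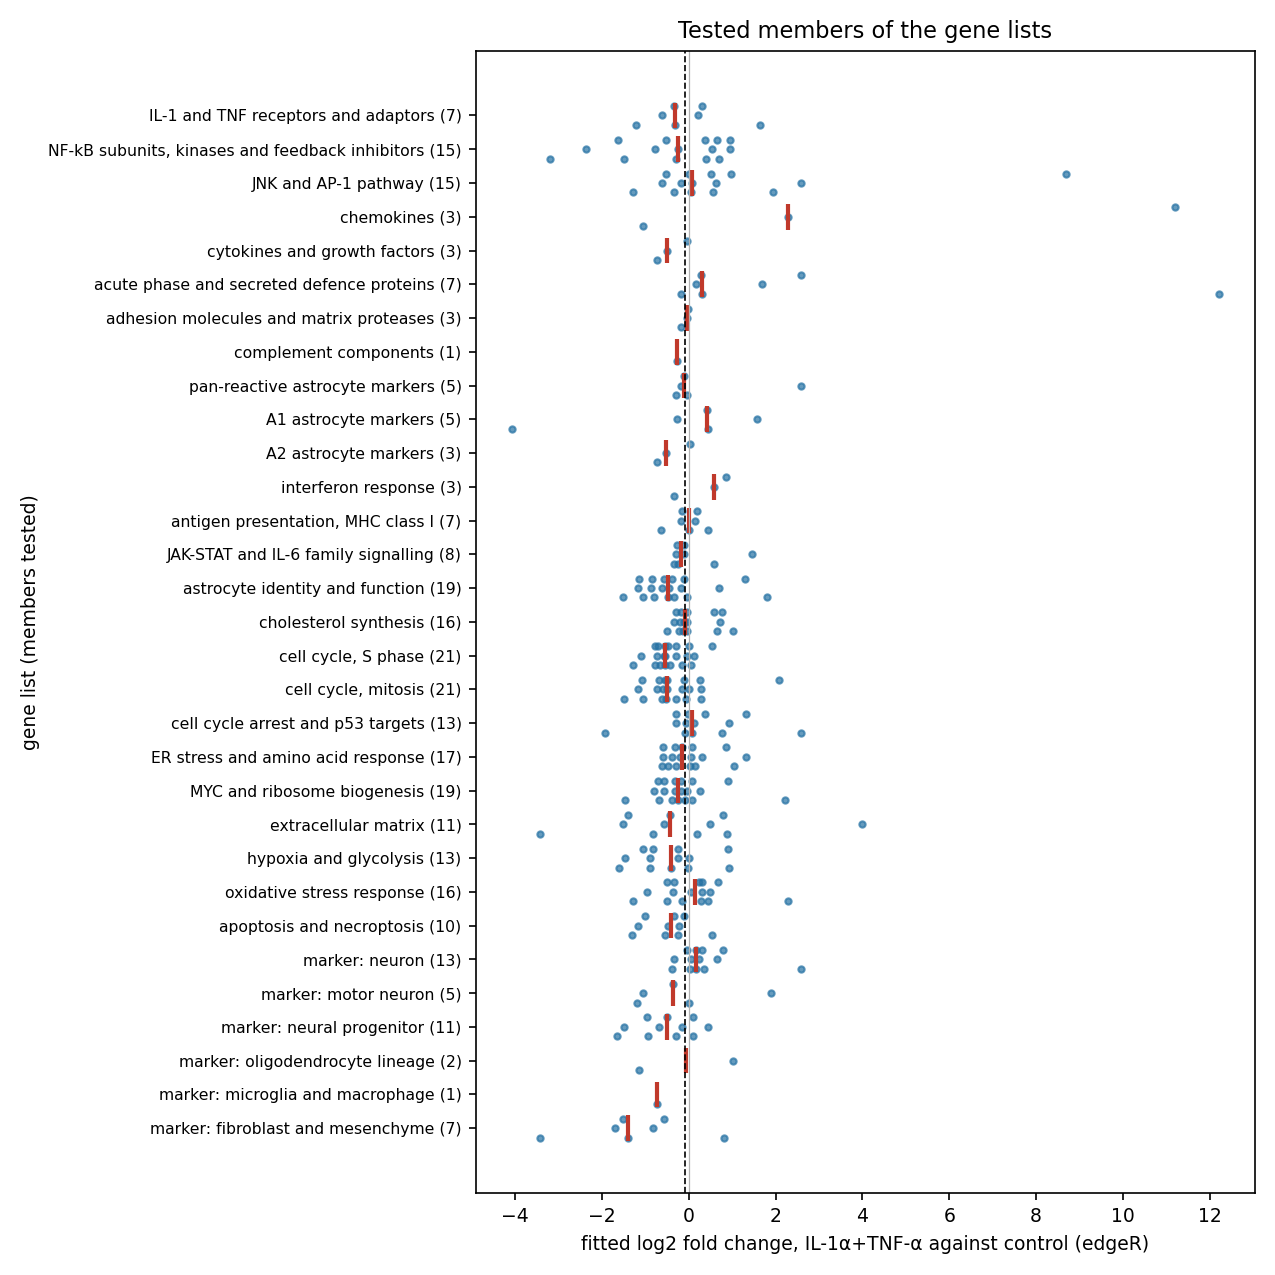
Fitted log2 fold change (edgeR, x axis) of each tested member of the gene lists (y axis, number tested in parentheses). Points are genes, red bars list medians and the dashed line the median of all genes, -0.08; the points beyond 8 are *Maff*, *Ccl5* and *Saa3*, whose fitted values are no bounds since the controls had no count, and the S phase and mitosis medians lie at -0.54 and -0.50.

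Cholesterol synthesis genes turned on control A. With all libraries, 5 of 16 tested genes were fitted higher and 11 lower, with a median log2 fold change of -0.08, and without control A the median was 0.33. *Fdft1*, the gene of squalene synthase, stood at 221, 23.9, 49.5 and 38.9 CPM in control and 122, 178.5, 114 and 125 CPM in stimulated libraries. Control A lay above every stimulated library and the other controls below them all. The log2 fold change of *Fdft1* was 0.64 (exact permutation p = 0.371) with control A and 1.87 without it. DESeq2 gave no p with control A and called *Fdft1* without it (adjusted p = 3.46e-04, range over its alternatives 3.46e-04 to 1.00). *Nsdhl*, a gene of a later step, overlapped (6.15 to 37.2 against 20.2 to 86.2 CPM).

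Other lists held no called member. Hypoxia and glycolysis genes (13 tested) had a median log2 fold change of -0.42, and 0.38 without control A, the library with the high *Pkm*. The mitophagy gene *Bnip3* of that list stood at 2.21, 28.3, 31.8 and 36.7 CPM in control and 45.1, 51.7, 57.4 and 31.5 CPM in stimulated libraries. Genes of ER stress and the amino acid response (17 tested) had medians of -0.15 and 0.16 with and without control A. *Ddit3*, the stress gene that encodes CHOP, stood at 7.83, 13.2, 16.3 and 66.8 CPM in control and 42.9, 37.5, 55.95 and 78.9 CPM in stimulated libraries (log2 fold change 1.04, or 0.75 without control A, exact permutation p = 0.143), where control D alone overlapped. *Manf*, a chaperone-like gene of the same list, stood at 306 to 536 CPM in control and 277 to 346 CPM in stimulated libraries. MYC and ribosome biogenesis genes (19 tested) had a median of -0.26 (-0.09 without control A), with *Myc* at 1.105, 11.6, 0 and 0.166 CPM in control and 11.2, 0, 32.4 and 16.98 CPM in stimulated libraries and *Nop16* at 113 to 181 against 23.9 to 159 CPM. Oxidative stress genes (16 tested) had a median of 0.13 (0.29 without control A), and *Txnrd1*, the gene of thioredoxin reductase, stood at 70.9, 139.8, 95.8 and 115 CPM in control and 129, 136, 242 and 165 CPM in stimulated libraries (log2 fold change 0.67, exact permutation p = 0.0857). *Nfe2l2*, the gene of the factor NRF2, overlapped (16.4 to 72.3 against 3.29 to 26.0 CPM). Of 10 tested apoptosis and necroptosis genes 1 was fitted higher and 9 lower, with a median of -0.40 (-0.53 without control A), and the pro-apoptotic gene *Bcl2l11* (8.31 to 25.8 against 0 to 14.6 CPM) overlapped.

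**Figure D4:**
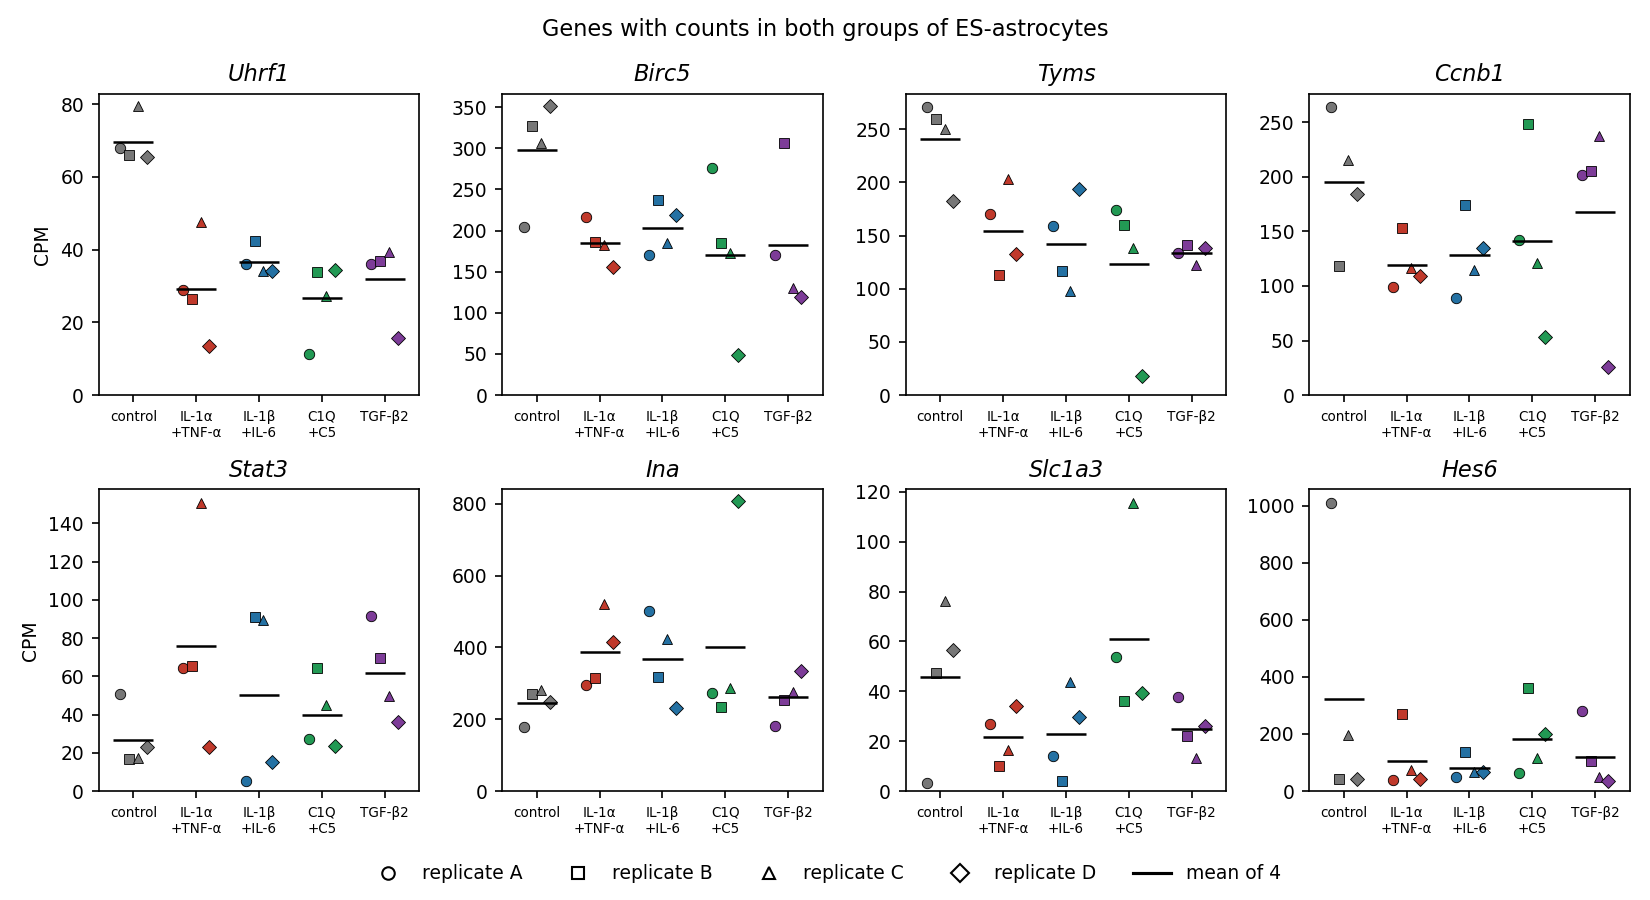
CPM of 8 genes counted in both groups (linear axes from 0), in each library of the control and of the 4 stimuli, with symbols for replicates A to D and lines for the mean of 4. *Uhrf1* lies at 65.5 to 79.5 CPM in the controls and at 13.5 to 47.5 CPM with IL-1α+TNF-α, while control A is the highest point for *Hes6* and the lowest control for *Slc1a3*.

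Markers of other cell types were read to find cells carried over by the sort. The 13 neuron genes, all counted and led by *Gap43*, summed to 2735, 4885, 3659 and 4295 CPM in control and 4819, 4023, 6160 and 4746 CPM in stimulated libraries (exact permutation p = 0.2), and 10 were fitted higher and 3 lower, with a median log2 fold change of 0.17 (0.14 without control A). *Ina*, the gene of the neuronal filament α-internexin, stood at 177.5, 271, 282 and 248 CPM in control and 296, 315, 522 and 416 CPM in stimulated libraries, without overlap (log2 fold change 0.66, exact permutation p = 0.0286). *Syt1*, the gene of the synaptic calcium sensor, stood at 5.625, 1.24, 5.78 and 4.32 CPM in control and 5.22, 29.75, 44.2 and 25.0 CPM in stimulated libraries (log2 fold change 2.59, exact permutation p = 0.0857). Stimulated A lay among the controls and the other libraries above them. The 13 motor neuron genes, led by *Lhx4*, summed to 188, 257, 118 and 382 CPM in control and 238, 147, 220 and 219 CPM in stimulated libraries. Within them, *Isl1* (11.65 to 57.0 against 8.46 to 22.4 CPM) and *Slit3* (0 to 9.14 against 0 to 16.4 CPM) overlapped. The 12 neural progenitor genes, led by *Hes6*, summed to 1541, 664, 615 and 459 CPM in control and 585, 604, 496 and 302 CPM in stimulated libraries, with control A more than any other library. *Dll3*, a Notch ligand gene among them, stood at 200.3, 36.0, 2.53 and 8.15 CPM in control and 10.3, 39.55, 26.3 and 16.5 CPM in stimulated libraries. The 11 tested genes of this list had a median of -0.50 (-0.29 without control A).

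With all libraries, fibroblast and mesenchyme genes had the lowest median of the lists with more than 1 tested gene. All 12 were counted, led by *Acta2*, and they summed to 1376, 1217, 739 and 384 CPM in control and 429.5, 681, 173 and 190.2 CPM in stimulated libraries (exact permutation p = 0.0857). Of 7 tested, 1 was fitted higher and 6 lower, with a median log2 fold change of -1.40 (-1.02 without control A), and the 11 tested extracellular matrix genes had a median of -0.44 (-0.23 without control A). *Dcn*, the gene of the matrix proteoglycan decorin, stood at 83.5, 789.7, 109 and 269.8 CPM in control and 195, 110.5, 98.7 and 66.4 CPM in stimulated libraries (log2 fold change -1.40, standard error 0.67, exact permutation p = 0.286). The collagen gene *Col1a2* stood at 4.32, 94.95, 29.6 and 0 CPM in control and 9.61, 1.69, 0 and 0 CPM in stimulated libraries (log2 fold change -3.42, exact permutation p = 0.257). Both overlapped between the groups, and both values leaned on control B: without it, chosen here after its values were seen, the log2 fold change of *Dcn*, the median gene of the list, was -0.41 and that of *Col1a2* -1.96.

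Microglia, a known source of IL-1α, TNF-α and C1q in the brain, were looked for with 14 genes, of which 5 were counted. *Aif1*, *Cx3cr1*, *Ptprc*, *P2ry12*, *Trem2*, *Tyrobp*, *C1qa*, *C1qb* and *C1qc* had no count in any of the 8 libraries. Genes with counts included *Csf1r*, at 0.402, 0, 1.81 and 0 CPM in control and 0, 4.39, 1.41 and 4.99 CPM in stimulated libraries, *Tmem119*, at 0 in control and 0.530, 0, 0 and 6.99 CPM in stimulated libraries, *Cd68*, at 15.0, 13.4, 0 and 0 CPM and 0, 0, 3.76 and 0 CPM, and *Itgam*, at 0.338 CPM in stimulated B alone. Whether a few microglia were present was not tested. Of 11 oligodendrocyte lineage genes, *Pdgfra*, *Cspg4*, *Sox10*, *Olig1*, *Mag*, *Enpp6* and *Gpr17* were at 0, and the sums, led by *Cnp*, were 23, 9.14, 49.5 and 3.325 and 11.96, 31.4, 24.9 and 4.99 CPM. Endothelial genes (3 of 8 counted, led by *Egfl7*; *Cdh5*, *Tek*, *Cldn5*, *Flt1* and *Emcn* at 0) summed to at most 8.64 CPM and pluripotency genes (3 of 10 counted, led by *Klf4*; *Pou5f1*, *Zfp42*, *Esrrb*, *Dppa5a*, *Dppa4*, *Utf1* and *Fgf4* at 0) to at most 5.49 CPM in any library. What part the neuronal and mesenchymal sums had in the other differences was not tested.

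The same inflammatory genes were read in the ES-motor neurons sorted from the control and stimulated co-cultures. In the 4 control ES-motor neuron libraries *Saa3*, *Ccl5*, *Ccl20*, *Ccl7*, *Cxcl5*, *Lcn2*, *C3* and *Ccl2* had no count. In the 4 ES-motor neuron libraries of stimulated co-cultures, which held 117344, 445874, 300549 and 112775 counts, *Saa3*, *Ccl20* and *Ccl2* had 2 counts each, *Cxcl5* had 1, and *Ccl5*, *Ccl7*, *Lcn2* and *C3* had none. At that depth 3 counts in a single library came to 25.6, 6.73, 9.98 and 26.6 CPM, and a limit over the 4 libraries together is lower. Of the genes without a count there, *Ccl5* stood at 12.85 to 68.9 CPM in stimulated ES-astrocytes, above the lowest limit, 6.73 CPM, in every library. Its lowest level, 12.85 CPM, lay below the limits of 25.6 and 26.6 CPM. *Ccl7*, *Lcn2* and *C3* each lay below 6.73 CPM in some stimulated ES-astrocyte libraries. The limits use unscaled totals and the levels TMM scaling, so the comparison is rough.

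DESeq2's 25 genes, named after their values were seen, were mostly of low count: 10 had no count and 6 had 1 to 3 counts in the control group, 2 had no count and 1 had 2 counts in the stimulated group, and 5 of the 25 exceeded 50 CPM in any library. *Pkp2*, the gene of the desmosomal protein plakophilin 2, stood at 0 in the controls and at 12.3, 8.11, 19.75 and 7.49 CPM in stimulated libraries, at least 120.2-fold higher (DESeq2 adjusted p = 3.85e-07, range over its alternatives 3.85e-07 to 1.00). *Syngr1*, the gene of a synaptic vesicle protein, stood at 0 and at 31.9, 8.45, 16.0 and 3.495 CPM, at least 240-fold higher on 487 counts, of which 421 were in stimulated A (DESeq2 adjusted p = 4.86e-06, range 4.86e-06 to 1.00). In both genes all 4 stimulated libraries lay above all controls.

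The zinc finger gene *Zfp24* was counted in every library, at 17.2, 21.7, 27.5 and 23.4 CPM in control and 63.7, 49.35, 49.4 and 54.4 CPM in stimulated libraries, again without overlap. Its log2 fold change was 1.27 by edgeR (standard error 0.48; exact permutation p = 0.0286), and DESeq2 gave an adjusted p of 7.67e-04 (range over its alternatives 7.67e-04 to 1.00). *Dph6*, a gene of diphthamide synthesis, stood at 1.00, 0.355, 0 and 1.995 CPM in control and 25.7, 15.55, 44.7 and 27.5 CPM in stimulated libraries (log2 fold change 4.99, standard error 1.31, exact permutation p = 0.0286). Other genes called higher included *Zfp715*, *Zfp773*, *Gm46430*, *Gm14005*, *A430035B10Rik*, *Tmc7*, *Ccdc148*, *Ranbp17*, *Clcn2*, *Mindy2* and *Pknox2*, none above 39.8 CPM in any of the 8 libraries. *Zfp715*, for one, had 1 count in the controls and 288 in the stimulated libraries, a ratio of 426 with a 95% Clopper-Pearson interval of 75.8 to 16870.

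Among the 5 genes called lower by DESeq2 was *Fgfr2*, which encodes a fibroblast growth factor receptor. It stood at 5.32, 6.03, 29.3 and 11.3 CPM in control and 0.454, 1.69, 0.470 and 0 CPM in stimulated libraries (log2 fold change -4.26, standard error 1.53, exact permutation p = 0.0286; DESeq2 adjusted p = 0.0274, range over its alternatives 0.00932 to 1.00). *Vat1l* stood at 12.8, 12.96, 65.8 and 10.1 CPM in control and 2.195, 0, 0.940 and 0 CPM in stimulated libraries (log2 fold change -4.87, exact permutation p = 0.0286). *Itprip* stood at 3.01, 7.90, 7.23 and 8.81 CPM in control libraries and 0 in stimulated ones, at least 43.3-fold lower, and the unnamed transcript *9530062K07Rik* at 3.515, 8.785, 11.2 and 5.985 CPM and 0, at least 45.3-fold lower. *Fbrs* had 248 counts in control and 2 in stimulated libraries, a ratio of 0.0119 (interval 0.00144 to 0.0435; DESeq2 adjusted p = 0.0315, range over its alternatives 0.0315 to 1.00). Without control A DESeq2 called neither *Fbrs* (adjusted p = 0.141) nor *Gm14005*, of the genes above (adjusted p = 0.0582 against 0.0475 with it, range 0.0475 to 1.00). In all 5 genes every stimulated library lay below every control. The groups did not overlap for 22 of DESeq2's 25 genes, beside 1.08% higher and 0.747% lower of all genes tested by edgeR. DESeq2 had called these genes on the same 8 libraries. Their separation and permutation p-values therefore add no support to the calls.

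The same genes were read in the ES-astrocytes given IL-1β and IL-6, C1Q and C5, or TGF-β2, 4 libraries each. Those groups are compared with the same controls, so values are given side by side only. The libraries of all those groups carry plate index 2 and the controls plate index 1, so that stimulus and plate cannot be told apart. *Saa3* stood at 25.5, 96.7, 15.8 and 0 CPM with IL-1β and IL-6, at 0, 0, 0 and 13.8 CPM with C1Q and C5 and at 0 in all 4 libraries with TGF-β2. *Ccl5* stood at 33.5, 9.14, 0 and 0 CPM with IL-1β and IL-6 and at 0 in all 8 libraries of the other groups. *Ccl20* stood at 22.4, 22.96, 0.154 and 13.7 CPM with IL-1β and IL-6, at 0 with C1Q and C5 and at 4.40, 0, 0 and 0 CPM with TGF-β2. The cytokine pairs with an IL-1 thus held most of these counts, with *Ccl5* in all 4 libraries of IL-1α and TNF-α and in 2 of 4 of IL-1β and IL-6. *Maff*, by contrast, was counted in 3, 3 and 4 of the 4 libraries with IL-1β and IL-6, C1Q and C5, and TGF-β2. *Uhrf1* lay below every control in these groups as well, at 36.0, 42.5, 34.0 and 34.1 CPM, 11.3, 33.7, 27.3 and 34.3 CPM and 36.1, 36.9, 39.4 and 15.6 CPM. *Pkp2* had no count with IL-1β and IL-6, and stood at 0, 5.30, 0 and 0 CPM with C1Q and C5 and at 6.92, 0.196, 2.895 and 0 CPM with TGF-β2.

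Direct tests set the IL-1α and TNF-α group against the groups given IL-1β and IL-6, or C1Q and C5, which share no library with it. All libraries of those groups carry plate index 2, so that the stimulus and the plate cannot be told apart. Against IL-1β and IL-6, edgeR called 0 of 9854 genes (0%), with 148 (1.5%) at an unadjusted p under 0.05, and DESeq2 called 35 of 13205 (0.265%), 27 higher and 8 lower with IL-1α and TNF-α. *Saa3* (adjusted p 0.690 to 1.00 over all fits), *Ccl5* (0.589 to 1.00) and *Ccl20* (0.929 to 1.00) did not pass in any, while DESeq2 called *Pkp2* (adjusted p = 1.43e-05, range over its alternatives 1.43e-05 to 1.00) and *Ccl2* (adjusted p = 0.00930, range 0.00930 to 1.00) higher with IL-1α and TNF-α. Neither gene had a count with IL-1β and IL-6. Against C1Q and C5, edgeR called 0 of 9832 (0%), with 114 (1.16%) at an unadjusted p under 0.05, and DESeq2 called 20 of 14393 (0.139%), 10 in each direction. Here *Ccl5* had an edgeR adjusted p = 0.331 and was called by DESeq2 (adjusted p = 7.53e-11, range over its alternatives 7.53e-11 to 1.00), as was *Ccl20* (adjusted p = 5.20e-14, range 5.20e-14 to 0.391). The call of *Ccl20* rests on stimulated A and B (105 and 12.85 CPM), since C and D had no count. Only 2 fits tested *Ccl20* here, with log2 fold changes as far apart as 10.25 and 22.76. *Saa3*, with an adjusted p from 0.400 to 1.00 over its fits, was not called.

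Since chemokine and acute phase genes are known targets of NF-κB and AP-1, the promoters of genes above were read from RefSeq (GRCm38.p6), 250 bases before to 50 after the start. Of 10 genes, chosen after their values were seen, 6 matched with 9 promoters, and *Ccl5*, *Ccl7*, *Cxcl5* and *Ccl2* were not searched, since the promoter table at hand had no entry for them. The NF-κB motifs GGGNNTTTC and GGGNNTTCC and the AP-1 motif TGANTCA were searched on both strands. They occur in 1432 (4.36%), 1912 (5.82%) and 2565 (7.81%) of 32851 promoters, and either NF-κB motif in 3130 (9.53%). The promoter of *Ccl20* (chr1:83116516-83116815, plus strand) held 1 match to each NF-κB motif, which overlap in 1 stretch of its reverse strand, and the first of 2 *Cp* promoters (chr3:19956804-19957103, plus strand) held 1 AP-1 match. Capitals mark these matches. The promoter of *Saa3* (chr7:46715627-46715926, minus strand), a gene counted in every stimulated and no control library, is printed beside them and held no match, nor did those of *Maff*, *Lcn2* and *C3*. A match describes these letters only.
Ccl20: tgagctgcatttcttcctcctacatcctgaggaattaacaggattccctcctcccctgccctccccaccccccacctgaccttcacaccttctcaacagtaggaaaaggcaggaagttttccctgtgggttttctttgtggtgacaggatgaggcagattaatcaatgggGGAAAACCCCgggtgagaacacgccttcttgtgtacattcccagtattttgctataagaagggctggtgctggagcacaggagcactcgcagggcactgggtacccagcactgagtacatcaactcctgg
Cp: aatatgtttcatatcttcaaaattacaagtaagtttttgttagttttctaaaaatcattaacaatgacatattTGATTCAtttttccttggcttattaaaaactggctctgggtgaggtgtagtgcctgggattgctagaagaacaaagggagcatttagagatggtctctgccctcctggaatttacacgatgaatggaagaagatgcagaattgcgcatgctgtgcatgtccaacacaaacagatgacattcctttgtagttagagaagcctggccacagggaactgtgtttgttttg
Saa3: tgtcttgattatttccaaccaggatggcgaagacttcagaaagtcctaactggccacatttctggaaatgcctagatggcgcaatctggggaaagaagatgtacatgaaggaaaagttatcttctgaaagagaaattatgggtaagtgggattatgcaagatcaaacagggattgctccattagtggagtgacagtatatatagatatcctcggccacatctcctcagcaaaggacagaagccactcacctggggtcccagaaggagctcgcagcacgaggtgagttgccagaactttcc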

How the data were processed

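The authors deposited raw counts of reads per Ensembl gene, made from polyadenylated RNA of sorted cells by template-switch cDNA synthesis, Tn5 tagmentation, paired-end sequencing and mapping with STAR. They used Ensembl identifiers through biomaRt, and state no annotation release, genome build, counting tool or strand setting. The deposited sample sheet also gives each library its index primers and a plate index (other), a plain number. GENCODE M21 (GRCm38) named 55141 of the 55487 genes. edgeR 4.0.16 (R 4.3.3) tested the 8 libraries alone, with filterByExpr, TMM, glmQLFit (robust) and glmQLFTest. DESeq2 1.42.0 (alpha 0.1) and limma 3.58.1 (voom with quality weights) were alternatives, with RLE factors, other filters, other covariates and each library left out. Single levels were also compared by permutation of the library labels (exact, two-sided). Folds against a group at 0 use 3 counts over the group, and those against 1 to 3 counts a Clopper-Pearson interval. Tables were written with pandas 2.3.3 and numpy 2.4.6 in Python 3.11.15, permutations run with scipy 1.17.1, and plots drawn with matplotlib 3.10.9.

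The members and the gene lists were chosen with earlier results of these data known. The rule named, of each list, the called members or else the 2 tested members of smallest p, 14 genes of receptors, signalling and astrocyte state whatever their p, and the most abundant and uncounted markers; it also took called genes, of which edgeR gave none. Some items that it named are not reported here. Lists were written from general knowledge and share members with each other, and *Chi3l1* and *Ctgf* matched no symbol of the table. The medians of the lists were equal with genes at 0 in a group set at their bounds.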

Additional observations from a re-analysis of the deposited data

Results flagged for a closer look

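Dixon's ratio of gap to range was read in 75 groups of 4 libraries (totals, marker sums and gene levels). Its cutoff is passed by about 1 in 20 groups by chance only if values are normally distributed. These values were not logged. A group with a count in only 1 library always passes, as *Fbln5* and the endothelial sum in stimulated B did. The highest or lowest value stood apart in 11 groups, a number that cannot be set against 1 in 20. Of the 4 in control libraries 3 were in control A: *Hes6* at 1008 CPM, *Pkm* at 502 CPM and the endothelial sum at 8.64 CPM. The fourth was *Uhrf1* at 79.5 CPM in control C. In the stimulated group, library A stood out with 14831839 counts in total, with *Ccl20* at 105 CPM and with *C3* at 27.25 CPM, library B with *Hes6* at 271 CPM, *Fbln5* at 7.78 CPM and the endothelial sum at 5.41 CPM, and library D with the pluripotency sum at 5.49 CPM.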

How the results depend on the processing

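Against control, edgeR called 0 genes with RLE factors, the stricter filter, no robust estimation, the index primer as a term, all 20 ES-astrocyte libraries, an adjusted p of up to 0.1 or no minimum fold, and limma-voom called 0. DESeq2 called 25, edgeR without the filter 2, and, chosen after seeing the data, DESeq2 called 170 without control A and 188 without control A and stimulated B, where edgeR called 0. Same-letter libraries did not resemble each other (correlations of their deviations -0.24 to 0.09), and the replicate block gave 0 calls. Each library left out gave 0 calls by edgeR. Against IL-1β and IL-6, DESeq2 called 35 and edgeR without the filter 0, and against C1Q and C5 they called 20 and 1. By edgeR, the replicate block and each library left out gave 0 in both.

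For 51 genes, among them all whose log2 fold change is printed, 995 refits were read for a change of sign, and 50 genes kept theirs. The exception was *Jun*: with each library left out, the log2 fold change of Jun ranged from -0.25 (without stimulated C) to 1.91. Signs had little room to turn, since some followed genes had no count in 1 group and the refits share most of their libraries. Some genes printed as levels only did turn over their fits, such as *Hes6* (-2.69 to 0.22), *Pkm* (-1.23 to 0.77) and *Cd44* (-0.55 to 0.72). In 60 refits, over 22 genes, a gene was called that edgeR had not called. Of 578 refits of list medians 26 moved by more than their jackknife standard error over the 8 libraries. Where calls differed between tools or libraries the cause was not tested. Depth limits the genes near 0: a count of 0 allows 1.49 CPM in stimulated D.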
